A study of Mus musculus with 168 samples.

Results

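The nuclear-encoded genes of the mitochondrial respiratory chain were followed through hypoxia and reoxygenation in 7 regions of the adult mouse brain. Their members were taken by symbol (names beginning with Ndufa, Ndufb, Ndufc, Ndufs, Ndufv, Sdha to Sdhd, Uqcr, Cox4 to Cox8 or Atp5) from probe sets annotated to 1 gene alone, with the brightest probe set standing for each gene. This gave 94 genes, of 18193 in all with a probe set to themselves. Of these, 80 were subunits: 34 of complex I (NADH dehydrogenase), 4 of complex II (succinate dehydrogenase), 8 of complex III, 17 of complex IV (cytochrome c oxidase) and 17 of the ATP synthase. The symbol rule also took in 12 assembly factors, Ndufaf1 to Ndufaf8 and Sdhaf1 to Sdhaf4, and the paralogs Ndufa4l2 and Cox7a2l. The label thus held for 80 of the 94.

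C57BL/6 male mice of 8 to 9 weeks breathed 8% O2 for 1 h (H1) or 3 h (H3), or for 3 h and were then returned to room air for 1 h (R1), 3 h (R3), 6 h (R6), 12 h (R12) or 24 h (R24); sham-treated mice were the controls. Pons and medulla, midbrain, thalamus, hippocampus, striatum, cerebral cortex and cerebellum each gave 3 arrays per time point, which makes 56 groups, and by the methods each condition held 3 mice, so that the 7 regions of a condition share animals. The controls had spent 3 h in the chambers in room air and 24 h in their cages, a course that only R24 shares. At H1, H3, R1, R3, R6 and R12, hypoxia, time since handling and hour of day therefore cannot be told apart. Nothing in the labels tied a replicate number to a mouse, and p-values measure the spread between arrays of a group. Values are linear probe set intensities, analysed as log2(intensity + 16), so that a log2 change understates the change of a dim probe set. Markers of each region were highest in their own region for all genes of the lists except Wfs1 of the hippocampus and Tph2 of the midbrain.

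Complexes I and II pass electrons from NADH and succinate to ubiquinone, complex III passes them to cytochrome c and complex IV to oxygen, and the ATP synthase uses the proton gradient that complexes I, III and IV build. Most subunits are encoded in the nucleus, and complex IV has subunits with tissue-specific isoforms. NRF1, GABP and YY1 are transcription factors known to act on promoters of respiratory chain genes, and hypoxia-inducible factors bind the core sequence of the hypoxia response element.

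Promoter windows, from 250 bases before to 50 after a gene's start in the RefSeq annotation of build GRCm38.p6, were at hand for 78 of the 94 members. The letters CGCATGCG (NRF1) were in 10 of the 83 member windows (12%) on either strand, against 1.87% of all 32851 windows. CCGGAAG (GABP) was in 22 (26.5%), against 8.86% of all windows. AAGATGGC (YY1) was in 10 (12%), against 2.75%. ACGTG (hypoxia response element) was in 21 (25.3%), against 19.6%. None of these 4 words contains another. Of the 40 windows of members that were higher in pons and medulla in controls (below), 42.5% held at least 1 of the first 3 motifs, against 41.9% of the 43 other windows. The windows of 6 members with a regional level or a change described below are shown 5′ to 3′ on the gene's strand, with the matched letters in capitals: the GABP letters in Sdhaf3 (chr6:6955768-6956067, plus strand) and Sdhd (chr9:50603800-50604099, minus strand, match on the other strand), the YY1 letters in Ndufs7 (chr10:80249199-80249498, plus strand), the NRF1 letters in Ndufaf5 (chr2:140170396-140170695, plus strand) and Uqcrc1 (chr9:108936398-108936697, plus strand), and 3 matches of the hypoxia response element in Atp5g1 (chr11:96075582-96075881, minus strand), of which 2 overlap on opposite strands.
Sdhaf3: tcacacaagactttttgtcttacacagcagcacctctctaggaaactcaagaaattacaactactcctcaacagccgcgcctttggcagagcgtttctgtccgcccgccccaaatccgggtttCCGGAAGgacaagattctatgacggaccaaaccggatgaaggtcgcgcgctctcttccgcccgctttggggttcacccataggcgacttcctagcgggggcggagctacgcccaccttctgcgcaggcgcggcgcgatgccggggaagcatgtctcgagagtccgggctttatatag
Sdhd: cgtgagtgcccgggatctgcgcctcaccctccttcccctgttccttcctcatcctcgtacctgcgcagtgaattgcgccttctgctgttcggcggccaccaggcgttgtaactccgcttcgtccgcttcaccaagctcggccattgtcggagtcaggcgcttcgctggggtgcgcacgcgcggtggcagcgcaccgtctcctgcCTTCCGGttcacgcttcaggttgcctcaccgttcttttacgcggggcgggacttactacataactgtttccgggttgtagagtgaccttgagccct
Ndufs7: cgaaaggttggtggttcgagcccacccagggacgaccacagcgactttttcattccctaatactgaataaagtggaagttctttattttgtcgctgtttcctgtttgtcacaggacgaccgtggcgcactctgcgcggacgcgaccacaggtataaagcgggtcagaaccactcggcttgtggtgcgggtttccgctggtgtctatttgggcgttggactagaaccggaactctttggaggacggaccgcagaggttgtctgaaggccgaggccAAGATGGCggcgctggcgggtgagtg
Ndufaf5: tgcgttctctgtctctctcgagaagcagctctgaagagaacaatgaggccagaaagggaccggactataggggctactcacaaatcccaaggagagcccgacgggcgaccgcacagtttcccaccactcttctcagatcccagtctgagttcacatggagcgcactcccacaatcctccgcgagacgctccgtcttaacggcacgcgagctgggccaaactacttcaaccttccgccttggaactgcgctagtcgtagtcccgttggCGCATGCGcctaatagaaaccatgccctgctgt
Uqcrc1: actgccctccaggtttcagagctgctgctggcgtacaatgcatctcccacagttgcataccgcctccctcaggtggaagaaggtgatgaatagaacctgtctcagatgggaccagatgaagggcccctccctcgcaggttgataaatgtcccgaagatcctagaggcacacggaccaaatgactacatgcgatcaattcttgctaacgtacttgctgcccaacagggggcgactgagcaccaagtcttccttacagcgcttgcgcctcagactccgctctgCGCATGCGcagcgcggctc
Atp5g1: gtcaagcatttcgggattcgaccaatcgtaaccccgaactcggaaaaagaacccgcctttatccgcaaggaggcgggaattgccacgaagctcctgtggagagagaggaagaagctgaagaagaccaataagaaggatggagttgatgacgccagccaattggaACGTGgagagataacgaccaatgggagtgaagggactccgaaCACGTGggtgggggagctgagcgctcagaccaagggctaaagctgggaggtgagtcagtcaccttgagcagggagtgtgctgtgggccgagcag

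The first comparison asked which members changed with hypoxia and reoxygenation over the brain as a whole. In the mean of the 7 regions (3 values a time point, limma's moderated test, Benjamini-Hochberg adjustment over 45037 probe sets), Cox7c, a subunit of complex IV, was the only member that passed the test at H1 and at H3, and Sdhaf3, an assembly factor of complex II, the only one at R1. No member passed at R3, R6, R12 or R24 (3, 1, 1 and 0 members at an unadjusted p under 0.05). Called members were thus 1 of 94 at each of H1, H3 and R1, against 0.158%, 3.36% and 5.48% of all probe sets, and 0 of 94 afterwards, against 0.782% at R3, 0.0422% at R6 and 0% at R12 and R24. Among the 22518 probe sets with a mean above the median, where 89 of the 94 members lie, the shares called were 0.213% at H1, 4.73% at H3, 8.75% at R1, 1.29% at R3 and 0.0755% at R6, and 0% at R12 and R24. The members' shares were thus above the background at H1 by the 1 gene Cox7c, and below it at H3 and R1. In bulk tissue a change or difference in the number of cells of a type and one in RNA per cell cannot be told apart.

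The precision of these values bounded most members closely. The 95% interval of the change lay within 1.2-fold in both directions for 86 of 94 members at H1, 89 at H3, 89 at R1, 87 at R3, 91 at R6, 92 at R12 and 92 at R24. The same held for 75.5% of all probe sets at H1, 71.1% at H3, 67.6% at R1, 72.9% at R3, 75.9% at R6, 74.2% at R12 and 76.3% at R24, and for 84.9%, 79.1%, 73.4%, 80.1%, 84.6%, 83.5% and 85.7% of the probe sets above the median. The median change of the members on the log2 scale was -0.043 at H1, with 82 of 94 below 0 (46.2% of all probe sets below 0), and it was -0.020 with quantile normalization and -0.055 with each array centred on its median. At H3 it was -0.014, but 0.003 with centred arrays. At R1 it was 0.041, with 67 of 94 above 0 and 57.4% of all probe sets below 0, but -0.004 with quantile normalization and 0.085 with centred arrays, so that its direction depended on the scaling. All 34 members of complex I lay between -0.15 and 0.01 at H1, and between -0.09 and 0.13 at R1.

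**Figure D1:**
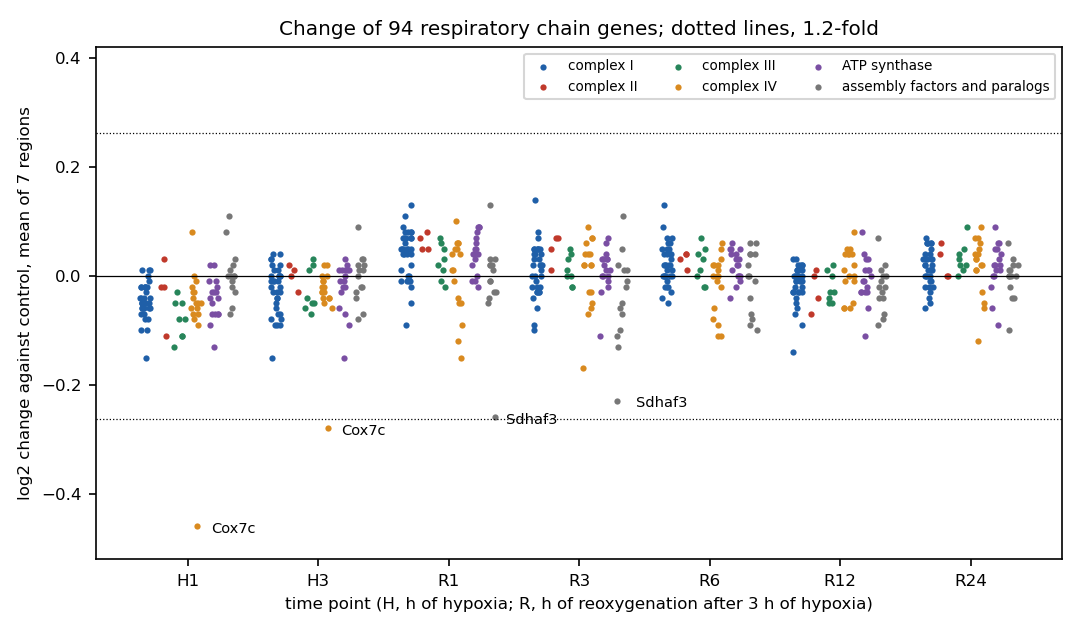
Log2 change against control in the mean of the 7 regions for each of the 94 genes (points, coloured by complex) at the 7 time points. Dotted lines mark a 1.2-fold change. Cox7c at H1 (-0.46) and H3 (-0.28) lies below them, and Sdhaf3 at R1 lies at -0.26.

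Cox7c stood at 5.49, 5.45 and 5.28 on the log2 scale in the 3 means over regions at H1 and at 5.64, 5.51 and 5.61 at H3, against 5.82, 6.01 and 5.77 in controls. Neither hypoxia group overlapped the controls. It fell by 0.46 at H1 (SE 0.06, adjusted p = 0.000612) and by 0.28 at H3 (SE 0.06, adjusted p = 0.0107). At R1 the 3 values were 5.86, 5.92 and 5.87, within the range of the controls, and the change was 0.01 (95% interval -0.11 to 0.14). This probe set was dim, with a mean intensity of 41.4 and a range of 15.9 to 96.7 over the arrays. Ubiquitous isoforms of complex IV averaged far more, such as 3047 for Cox4i1 and 3735 for Cox7a2. Its suffix also marks possible cross-hybridisation, and how much of the Cox7c mRNA this probe set reads was not tested. The other Cox7c probe set, dimmer still with a mean of 7.81, gave -0.25 at H1 (adjusted p = 0.34) and -0.2 at H3 (adjusted p = 0.21). The call at H3 was lost without control replicate 2 (-0.21, adjusted p = 0.0814) or H3 replicate 2 (-0.24, adjusted p = 0.0696), while the call at H1 held without any 1 of the control values. With replicate number 1, 2 or 3 left out of all groups, the change at H1 was -0.53, -0.42 and -0.45 and no longer passed (adjusted p = 0.0911, 0.0777 and 0.081), and at H3 it was -0.17 without replicate 2 (adjusted p = 0.392).

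By region, Cox7c had intensities of 21.3, 21.4 and 20.0 in the hippocampus at H1 and 32.5, 31.1 and 31.4 at H3, against 40.4, 50.6 and 29.5 in its controls. The H1 arrays lay below every control array there, with a log2 change of -0.59 (SE 0.10, adjusted p = 0.0456). This was the only one of 4606 combinations of member, region and time point that passed the test within a region, where 0.0377% of all probe sets passed in hippocampus at H1 and 0.108% over all regions and time points. The call was lost without hippocampus control replicate 1 (adjusted p = 0.22) or 2 (adjusted p = 0.3), and without any 1 of the H3 or R1 arrays of the hippocampus, which share the estimate of spread (adjusted p 0.0718 to 0.0773). In pons and medulla the H1 arrays read 23.7, 20.0 and 21.3, against 35.2, 50.4 and 36.7 in controls (adjusted p = 0.0712). In midbrain they read 19.0, 27.4 and 17.7, against 39.5, 54.2 and 39.6 (adjusted p = 0.243), and in cerebellum 47.1, 45.9 and 27.2, against 69.2, 91.7 and 57.8 (adjusted p = 0.137). All 3 of these regions had H1 arrays below all of their controls without passing the test. Cortex gave 32.7, 29.9 and 26.0 at H1, against 36.8, 34.4 and 36.1 in controls, and thalamus 27.8, 26.9 and 21.8, against 25.2, 35.5 and 37.5. The thalamus arrays overlapped their controls. Striatum gave 36.2, 26.9 and 26.0 at H1, against 46.7, 37.6 and 36.3 in controls, just short of overlap.

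**Figure D2:**
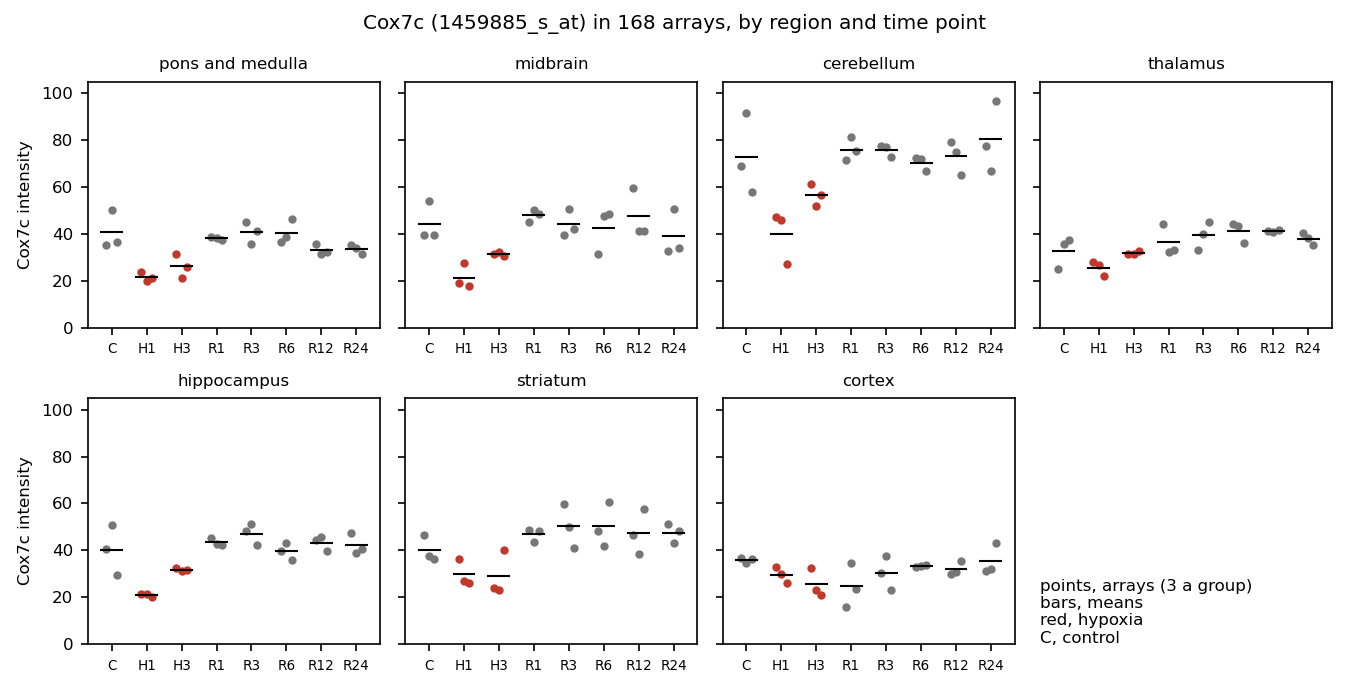
Cox7c intensity on every array, by region (panels) and time point (x axis; C, control), with bars at group means and hypoxia arrays in red. The 3 H1 arrays of the hippocampus (20.0 to 21.4) lie below its 3 controls (29.5 to 50.6), and cerebellum has the highest mean at each time point.

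Reoxygenation was compared with the end of hypoxia in the same fit. Cox7c was higher by 0.29 at R1 than at H3 (SE 0.06, adjusted p = 0.0128), the only member of 94 that passed, against 1.83% of all probe sets and 2.31% of those above the median. The R1 and H3 means did not overlap, but the call was lost without H3 replicate 2 (adjusted p = 0.0637), without R1 replicate 2 (adjusted p = 0.0586) or with striatum left out of the mean (adjusted p = 0.0655). The median of the members for this difference was 0.056, with 82 of 94 above 0, among them 34 of 34 in complex I and 17 of 17 in the ATP synthase, while the median over all probe sets was -0.011 and 55.6% of them lay below 0. With quantile normalization the members' median was 0.022. The next smallest unadjusted p-values belonged to Ndufb11, Ndufv2 and Ndufa2, all of complex I, and Sdhaf3, none of which passed (adjusted p 0.192 to 0.403).

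Sdhaf3 had log2 means over regions of 6.89, 6.80 and 6.93 at R1, against 7.10, 7.08 and 7.24 in controls. It fell by 0.26 (SE 0.06, adjusted p = 0.0165), without overlap. At R3 the change was -0.23 (adjusted p = 0.0995), and at R12 it was 0 (95% interval -0.13 to 0.13). No single region passed at R1; the values ran from -0.55 in hippocampus (SE 0.15, adjusted p = 0.153) and -0.44 in cortex to -0.07 in thalamus. Its second probe set, with a mean intensity of 13.1, gave 0.07 at R1 (adjusted p = 0.778). The call was lost with each array centred on its median (-0.22, adjusted p = 0.0653), without control replicate 3 (-0.21, adjusted p = 0.0715), without R1 replicate 2 (-0.22, adjusted p = 0.0952), and with cortex or hippocampus left out of the mean (adjusted p = 0.0518 and 0.0603).

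A pair of isoform genes known to rise with hypoxia in other cells, Cox4i2 of subunit 4 and the Ndufa4 paralog Ndufa4l2, were examined beside their ubiquitous partners. Cox4i2 had median intensities over the 7 regions of 49.0 in controls, 47.7 at H1, 49.7 at H3 and 45.3 at R1, with 25.4 to 72.3 over all these arrays. Its change at H3 was -0.01 (95% interval -0.14 to 0.12). Ndufa4l2 had medians of 55.6 in controls, 56.3 at H1, 53.8 at H3 and 54.9 at R1, and its change at H3 was 0.03 (95% interval -0.1 to 0.15). Both probe sets were dim, and the groups overlapped at every time point. Cox4i1, the ubiquitous isoform, changed by 0 at H3 (95% interval -0.1 to 0.11). Of the other isoforms, Cox6a1, Cox6a2, Cox6b1, Cox6b2, Cox7a1, Cox7a2, Cox7a2l, Cox8a, Cox8b and Ndufa4, none passed at any time point, and their changes in the mean of the regions lay between -0.17 (Cox6b2 at R3) and 0.1 (Cox8a at R1).

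Within single regions 116 of the 4606 tests (2.52%) had an unadjusted p under 0.05, against 6.3% of all probe sets, and 5 exceeded 1.5-fold: Cox7c at H1 in hippocampus, midbrain and cerebellum, Ndufaf6 in striatum at R12 and Cox8b in cortex at R12. Ndufaf6, an assembly factor of complex I, was at -0.69 (adjusted p = 1) and Cox8b, a muscle isoform of subunit 8, at 0.82 (adjusted p = 0.745), both from dim probe sets. Whether a member's change differed between the 7 regions was tested as an interaction over all arrays, which takes arrays of different regions as independent although they share animals. No member passed at any of the 7 time points (2 members at an unadjusted p under 0.05 at H1, 2 at H3, 0 at R1, R3 and R6, 2 at R12 and 5 at R24), and of all probe sets 0.00222% passed at H1, 0.0133% at H3, 0.0933% at R1, 0.00444% at R3, 0.00222% at R6 and 0% at R12 and R24. The smallest adjusted p-value was 0.919, for Cox7c at R1.

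Genes around the chain were counted in the mean of the 7 regions, from lists chosen with earlier results known. None of the 12 measured citric acid cycle enzymes passed at H1, H3, R1 or R3. Of 16 regulators of mitochondrial biogenesis, 3 fell at H3 and 5 at R1, where 3.36% and 5.48% of all probe sets passed in either direction, and 4.73% and 8.75% of those above the median. The counts of the other lists are to be read against the same shares. Gabpa, the DNA-binding subunit of GABP, stood at 6.5 on the log2 scale at H3, against 6.75 in controls (change -0.25, SE 0.05, adjusted p = 0.00485). Mterf3, a mitochondrial transcription factor, fell by 0.24 at R1 (SE 0.04, adjusted p = 0.000633), and Polrmt, the mitochondrial RNA polymerase, fell at both times. Yy1 was at 8.33 at R1, against 8.5 in controls (change -0.17, adjusted p = 0.0196). Ppargc1a, a coactivator of these genes, was at 0.11 at H3 (adjusted p = 0.264) and did not pass. Of 14 hypoxia genes that act on the chain, 3 were higher at R1: Bnip3, a mitophagy receptor (0.24, adjusted p = 0.00108), Higd1a (0.18, adjusted p = 0.0192) and Vhl (0.18, adjusted p = 0.0111). Hif1a did not pass (0.04 at R1). Bnip3 was also higher at R3 (0.25, adjusted p = 0.00479) and R6 (0.23, adjusted p = 0.0413), and Higd1a at R3 (0.19, adjusted p = 0.0461). Of the regulators, Tfb1m was lower at R3 (-0.23, adjusted p = 0.00903). Of all probe sets 0.782% passed at R3 and 0.0422% at R6. Of 29 measured assembly factors under other symbols, Tmem126b of complex I was lower at H3 (-0.25, adjusted p = 0.0137) and R1, and Surf1 did not pass (0.12 at R1). Among 11 other members of the chain Higd2a alone was lower at H3 (-0.15, adjusted p = 0.0442), while Cycs, cytochrome c, was at -0.02.

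The second comparison set the levels of the members in the regions of the control mice against each other. Pons and medulla stood above the rest for much of the chain: 43 of 94 members were higher there than in the mean of the other 6 regions and 1, Cox6a2, was lower, against 9.42% higher and 8.79% lower of all probe sets, and 15.9% and 14.1% of the probe sets above the median. Cortex had 2 members higher and 30 lower (7.78% and 9.5% of all probe sets, 12.5% and 16% of the probe sets above the median). Striatum had none higher and 27 lower (9.05% and 10.2%, or 13.3% and 16.9% above the median). In midbrain 9 were higher and none lower (6.4% and 5.21%, or 10.7% and 8.62%). Cerebellum had 15 higher and 8 lower, near its background of 15.7% and 13.5% (22.7% and 21.3%). Thalamus had 2 higher and 1 lower (4.78% and 3.99%, or 7.75% and 6.41%) and hippocampus 1 and 1 (6.39% and 6.69%, or 10.7% and 10.9%). The median difference of the 94 members was 0.209 for pons and medulla, 0.067 for midbrain, -0.124 for striatum and -0.163 for cortex on the log2 scale, and the medians over all probe sets in these 4 regions lay between -0.019 and 0.017. An F-test across regions called 57 of 94 (60.6%), against 39.8% of all probe sets and 60.8% of those above the median, so that the share called was at the background of probe sets of like brightness. These tests took arrays of different regions as independent. With 1 replicate left out, 16 to 19 members were higher in pons and medulla, 10 to 16 lower in cortex and 2 to 7 lower in striatum, and the F-test called 19 to 26. With arrays centred on their median, 5 members were higher in cerebellum and 3 in midbrain. Shares of all probe sets were not computed with a replicate left out or with centred arrays, so these counts have no background of their own.

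**Figure D3:**
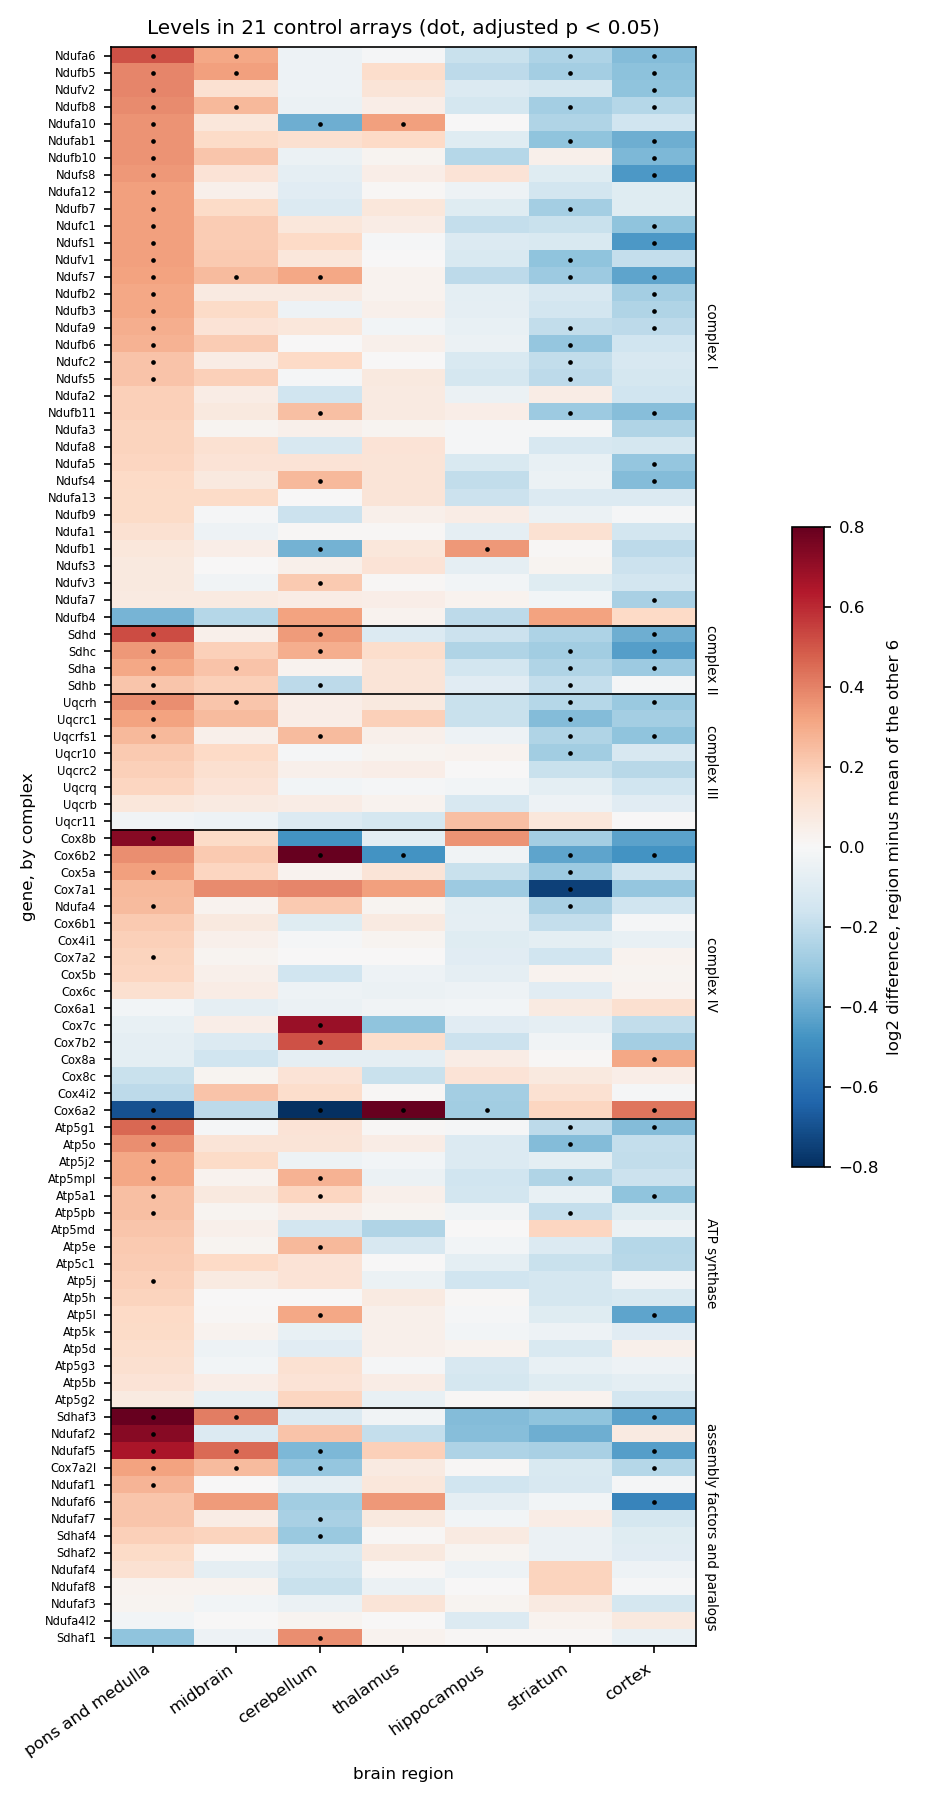
Log2 difference between each region and the mean of the other 6 in the 21 control arrays, for the 94 genes (rows, by complex) and 7 regions (columns); dots mark an adjusted p under 0.05. The column of pons and medulla is red for 83 of 94 genes and the column of cortex blue for 83.

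Complex by complex, pons and medulla were higher for 20 of 34 members of complex I (median 0.285), 4 of 4 of complex II (0.328), 3 of 8 of complex III (0.2), 4 of 17 of complex IV (0.169) and 7 of 17 of the ATP synthase (0.204), all 17 of which lay above 0. Cortex was lower for 17 of 34 in complex I, 3 of 4 in complex II and 2 of 8 in complex III, and for 1 of 17 in complex IV and 3 of 17 in the ATP synthase. The citric acid cycle enzymes, which feed the chain, were higher in pons and medulla for 9 of 12 and lower for none. Mitochondrial ribosomal proteins were higher for 20 of 76 and cytosolic ribosomal proteins for 3 of 47. Of all probe sets 9.42% were higher in pons and medulla and 9.5% lower in cortex, and 15.9% and 16% of those above the median. The counts in cortex of complex IV and the ATP synthase, and that of cytosolic ribosomal proteins, lay near or below these shares.

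Members of complexes I and II and of the ATP synthase gave arrays in pons and medulla that stood clear of the cortex. Ndufa6, an accessory subunit of complex I, read 1211, 1342 and 1258 in pons and medulla, against 1156, 1044 and 1186 in midbrain and 726, 712 and 824 in cortex. No array of one of these regions overlapped another, and the difference from the mean of the other 6 was 0.51 (SE 0.07, adjusted p = 3.27e-05). Ndufs1, a core subunit that carries iron-sulfur clusters, read 807, 678 and 709, against 457, 434 and 459 in cortex (0.33 for pons and medulla, adjusted p = 0.00436). Ndufs7, another core subunit, read 1236, 1071 and 1281, against 770, 713 and 816 in cortex (0.32 for pons and medulla, SE 0.08, adjusted p = 0.00626). Sdhd, a membrane anchor of complex II whose promoter is shown above, read 828, 566 and 901, against 523, 423 and 362 in cortex (0.52, SE 0.12, adjusted p = 0.00411), and its lowest array in pons and medulla overlapped midbrain and cerebellum. Sdha, the subunit that oxidizes succinate, read 2350, 1967 and 2310, against 1626, 1515 and 1479 in cortex (0.31, adjusted p = 0.00229). Atp5g1, which encodes subunit c of the ATP synthase, read 1108, 1004 and 1116, against 690, 661 and 632 in cortex (0.46, SE 0.06, adjusted p = 5.04e-05). Its 3 arrays in pons and medulla lay above those of all other regions. Uqcrc1, a core protein of complex III, was higher by 0.32 (SE 0.10, adjusted p = 0.0315). Over all members, all 3 control arrays of pons and medulla lay above all 3 of cortex for 72 of 94 (76.6%), against 17.3% of all probe sets. They lay above those of striatum for 57 (60.6%), against 18.4%, and above those of midbrain for 19 (20.2%), against 6.55%. For hippocampus it was 51 (54.3%), against 17.3%, for thalamus 44 (46.8%), against 12.6%, and for cerebellum 38 (40.4%), against 18.5%. Such shares were not computed for the probe sets above the median, where most members lie.

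The hypoxia and reoxygenation arrays gave the same comparison in other samples. Members higher in pons and medulla numbered 43 at H1, 48 at H3, 48 at R1, 60 at R3, 59 at R6, 55 at R12 and 41 at R24, against 9.53%, 9.98%, 10.9%, 9.84%, 10.7%, 9.83% and 9.22% of all probe sets. Over these groups and the controls together, 78 of 94 lay above the mean of the other regions in all 8 groups. Members lower in cortex numbered 30, 37, 36, 37, 43, 29 and 36 at the same time points, against 9.62%, 11.1%, 11.6%, 10.3%, 11.4%, 10.1% and 10.7%. In cortex 70 of 94 lay below the other regions in all 8 groups. The share of all probe sets on the same side in all 8 groups was not computed, so the 78 and the 70 stand without a background. Members lower in striatum numbered 19, 20, 26, 14, 23, 12 and 7, against 11%, 11.3%, 11.9%, 10.9%, 11.8%, 11.3% and 11.6%. In controls the shares of probe sets above the median were 15.9% higher in pons and medulla, 16% lower in cortex and 16.9% lower in striatum. Such shares were not computed at the other time points. Beside 16.9%, the striatum was near or below its background at H1, H3, R3, R12 and R24. Ndufa6, Ndufs1, Sdhd, Sdhaf3 and Ndufaf5 each passed in all 8 groups in pons and medulla. In a check chosen after these values were seen, the second probe sets of the 53 members that have one gave 27 higher in pons and medulla in controls, as many as their first probe sets, and 42 of 53 above 0. Of all probe sets 9.42% were higher there. The second probe sets gave fewer calls elsewhere: 14 lower in cortex, against 20 of the first, 11 lower in striatum, against 17, and 4 higher in midbrain, against 7. They were read on the same arrays, so this is no independent sample. The mean log2 value of the 80 subunits ran from 10.05 to 10.30 over the 24 arrays of pons and medulla, against 9.92 to 10.12 in midbrain, 9.93 to 10.08 in cerebellum, 9.88 to 10.15 in thalamus, 9.83 to 10.03 in hippocampus, 9.82 to 10.10 in striatum and 9.75 to 9.88 in cortex. The arrays of pons and medulla and those of cortex did not overlap, whereas those of midbrain, cerebellum, thalamus and striatum overlapped pons and medulla. Markers of cell types were summed on each control array. The 7 oligodendrocyte markers summed to intensities of 14368 to 15936 in control pons and medulla, against 13687 to 14774 in midbrain, 11560 to 13056 in thalamus, 11723 to 12211 in striatum, 9428 to 10010 in cerebellum, 9055 to 9762 in hippocampus and 8236 to 8914 in cortex. The 8 astrocyte markers summed to 14219 to 15506 in pons and medulla, against 11713 to 11909 in cortex, and the 8 neuronal markers to 18609 to 18922, against 19949 to 21713. The 7 choroid plexus markers summed to 5137 to 6368 in pons and medulla, against 3404 to 6279 in hippocampus, 606 to 5321 in cerebellum, 369 to 4607 in midbrain, 629 to 3234 in cortex, 510 to 1297 in striatum and 574 to 791 in thalamus. The 3 erythroid markers measured summed to 108 to 193 in pons and medulla, against 36.7 to 151 over the other regions. The part of these cell types in the regional levels was not tested.

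**Figure D4:**
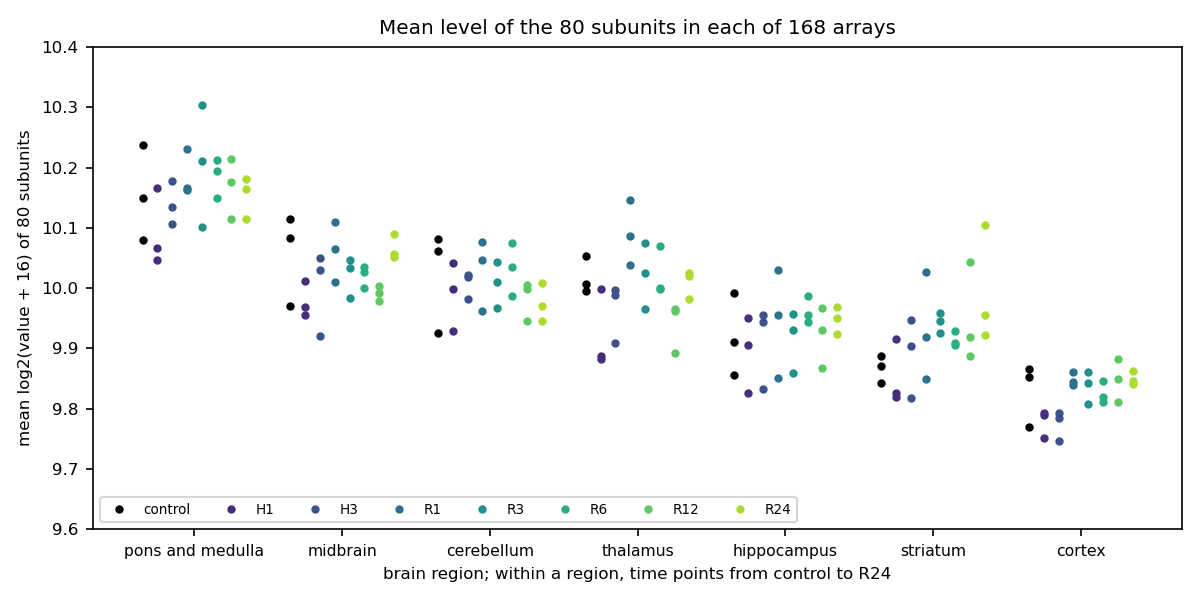
Mean log2(intensity + 16) of the 80 subunits on each array, by region and, within a region, by time point from control to R24 (points, 3 arrays a group). Arrays of pons and medulla lie between 10.05 and 10.30 and arrays of cortex between 9.75 and 9.88.

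The widest regional range belonged to Cox6a2, known as the heart and skeletal muscle isoform of subunit 6a of complex IV. It read 278, 270 and 278 in thalamus, against 137, 119 and 125 in cortex, 125, 108 and 88.6 in striatum, 48.6, 44.0 and 39.1 in cerebellum and 60.8, 47.5 and 63.5 in pons and medulla. Each thalamus array stood above every array of the other regions, 1.63 above the mean of the others (SE 0.08, adjusted p = 4.79e-10), and the range between regions was 2.28 on the log2 scale (F-test, adjusted p = 2.2e-10). It passed in all 8 groups in thalamus, at 1.5 to 1.63. Over all 24 arrays of a region the intensities were 216 to 284 in thalamus, against 32.7 to 54.9 in cerebellum. The 8 striated muscle markers summed to 148 to 162 in control thalamus, against 224 to 235 in cortex and 109 to 158 in pons and medulla. Whether muscle tissue had a part in the Cox6a2 levels was not tested. Cox6a1, the ubiquitous partner of Cox6a2, ranged over 0.17 (adjusted p = 0.548).

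Other isoforms of complex IV, and the subunit Cox7c, differed between regions in their own ways. Cox6b2, known as the testis isoform of subunit 6b, read 80.3, 63.8 and 79.3 in cerebellum, against 27.3, 20.7 and 28.2 in cortex, with 0.84 above the mean of the others in cerebellum (SE 0.13, adjusted p = 9.6e-05) and a call there in all 8 groups. Cox7c was also higher in cerebellum, at 69.2, 91.7 and 57.8, against 25.2, 35.5 and 37.5 in thalamus (0.69, SE 0.12, adjusted p = 3e-04, all 8 groups). Cox7b2, a testis isoform of subunit 7b, was higher there by 0.51 (adjusted p = 0.00175). Cox7a1, a muscle isoform of subunit 7a, was lower in striatum, at 22.0, 41.3 and 32.6, against 88.9, 57.8 and 87.9 in cerebellum (-0.75 in striatum, SE 0.17, adjusted p = 0.00384). Cox8b read 41.1, 47.0 and 44.7 in pons and medulla, against 25.9, 11.6 and 7.96 in cortex (0.73, SE 0.20, adjusted p = 0.0165). These probe sets were dim, and neighbouring regions in the order of levels overlapped for most of them. In the F-test across regions, Cox8b did not pass with a pseudocount of 1 (adjusted p = 0.082). Without replicate 1, 2 or 3 it did not pass either (adjusted p = 0.088, 0.134 and 0.127). Cox7a1 (adjusted p = 0.164 and 0.0897) and Cox7c (adjusted p = 0.135 and 0.0567) did not pass that test without replicate 1 or 2. Cox8a, the ubiquitous isoform of subunit 8, was higher in cortex (0.31, adjusted p = 0.00294), unlike the 30 members that were lower there. Cox4i2 (adjusted p = 0.442), Cox4i1 (0.255), Cox6b1 (0.0912), Cox7a2 (0.0887) and Ndufa4l2 (0.99) did not pass the F-test, while Ndufa4 (0.016) and Cox7a2l (0.000174) did, both with their highest means in pons and medulla.

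**Figure D5:**
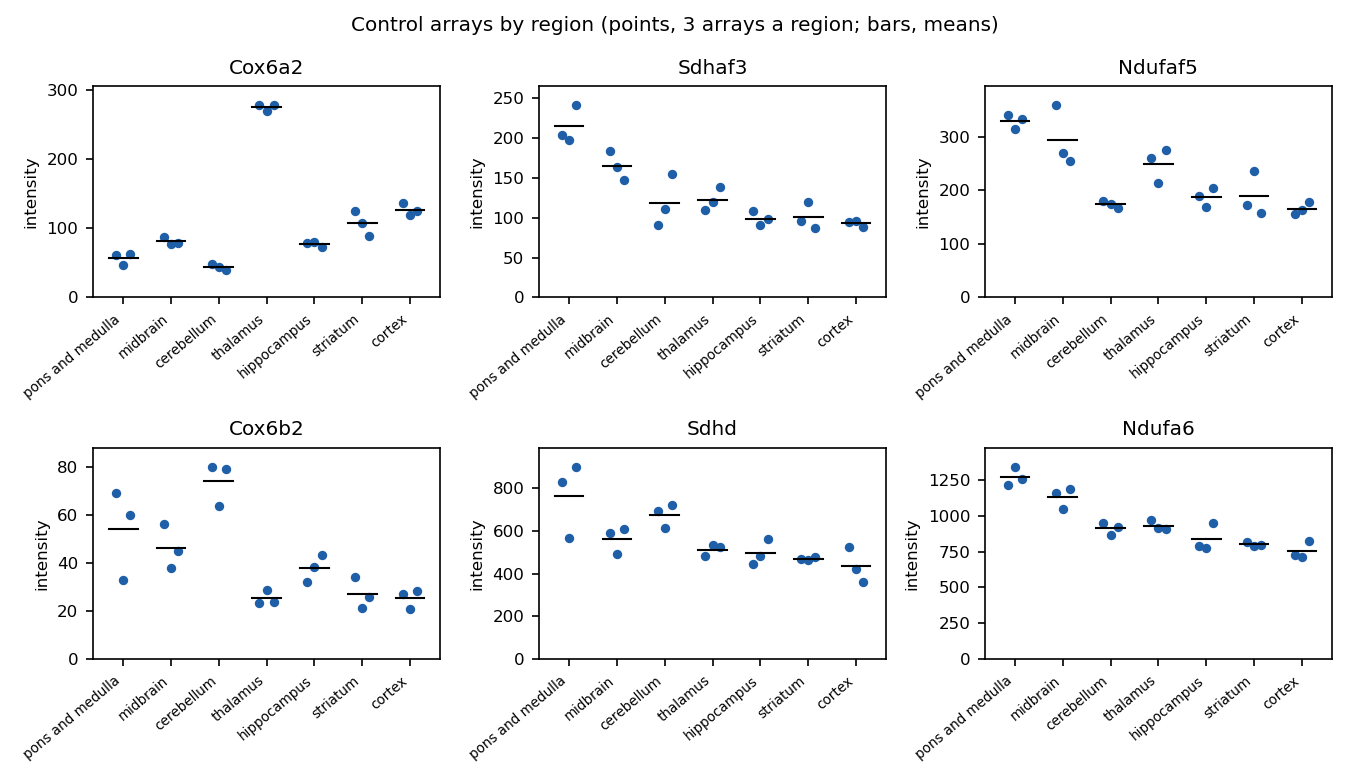
Intensity of 6 genes in the control arrays of each region (points, 3 arrays; bars, means). Cox6a2 is highest in thalamus (270 to 278), Cox6b2 has its highest mean in cerebellum (63.8 to 80.3), and Sdhaf3, Ndufaf5, Sdhd and Ndufa6 have their highest means in pons and medulla.

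Assembly factors completed the widest ranges. Sdhaf3, of complex II, read 204, 198 and 241 in pons and medulla, then 183, 163 and 147 in midbrain, against 94.2, 95.5 and 88.8 in cortex. Neither of the first 2 regions overlapped the next in order, and pons and medulla stood 0.82 above the mean of the others (SE 0.11, adjusted p = 3.69e-05). Ndufaf5, of complex I, read 341, 314 and 334 in pons and medulla, then 359, 270 and 255 in midbrain, against 156, 164 and 178 in cortex. The first 2 regions overlapped, and both were higher than the mean of the others (0.65 and 0.45, adjusted p = 0.000264 and 0.0089). Ndufaf2, also of complex I, read 236, 231 and 209 in pons and medulla, against 112, 117 and 242 in cortex (0.73, SE 0.16, adjusted p = 0.00358), with 1 cortex array above all 3. In the F-test across regions, Ndufaf2 did not pass without replicate 1 or 2 (adjusted p = 0.107 and 0.204).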

How the data were processed

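Total RNA of 7 brain regions was hybridised to Affymetrix mouse whole-genome arrays, 3 for each of 56 groups. The authors deposited linear signal intensities for 45101 probe sets; the submitters' notes name GCOS 1.3. The methods describe GCRMA, quantile normalization and division by the sham mean, which these values do not show, and how the deposited values were made was not given in the sources used here. The 64 control probe sets were left out, leaving 45037. Of the values of an array 23.3 to 30.2% lay under 16, the pseudocount of log2(intensity + 16), so dim probe sets carry little precision. The annotation names 1 symbol for 34945 probe sets, several for 932 and none for 9160, and 10 shared probe sets of the chain were not used. Of the members, 17 rest on probe sets whose suffix marks possible cross-hybridisation.

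Moderated tests were run with limma 3.58.1 (R 4.3.3), with Benjamini-Hochberg adjustment over all 45037 probe sets and a threshold of 0.05, in 4 designs: each region alone (24 arrays), the mean of the 7 regions per time point and replicate number (24 values), the interaction over all arrays, and the 21 control arrays by region. Scripts were tested on simulated data. The genes named were the isoform families, the members called (up to 5 a direction in the mean of the regions) and the 8 members with the widest range between control regions. Of each pathway list, up to 4 called genes a time point and 1 not called were named. Ndufs1, Sdha, Sdhd, Ndufa6, Atp5g1, Uqcrc1, Ndufs7, Cox7b2, Ndufaf6, Ndufb11, Ndufv2 and Ndufa2 were added after their values were seen. The members and lists were chosen with earlier results of these data known. Alternatives covered pseudocounts of 1 and 32, quantile normalization, median centring, brighter probe sets, trend and robust fits, the replicate block, the methods' t-test, other probe sets, and leaving out arrays, replicate numbers or regions. The NRF1 letters were shortened after a longer form of the motif had been counted, which raised their share in member windows and in all windows.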

Additional observations from a re-analysis of the deposited data

How the results depend on the processing

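With 3 arrays a group, a change of a single gene under about 1.2-fold lay near the limit of the mean over regions, and the dim probe set of Cox7c lay near the floor of the signal. The labels do not say that a replicate number is an animal, and not every pair of same-numbered arrays correlated, so no pairing was assumed: deviations of same-numbered arrays from their group means correlated with a median of 0.08 within a region (147 pairs, 48 over 0.1) and 0.04 between regions (504 pairs, 78 over 0.1). Some same-numbered arrays did move together across regions: at R3 the microglial marker sum was highest in replicate 3 in all 7 regions (in midbrain 2574, beside 1740 and 1767), and control replicate 2 had the lowest subunit mean in 6 of 7. Replicate 2 also had the lowest subunit mean in most groups after control, in cerebellum at every time point (at R1 9.962, beside 10.047 and 10.077). Replicate number thus went with a shift in the subunits' level, which the main fits did not take out. Counts of members stayed within 1.5 times their value in 1121 comparisons with an alternative and not in 136. The 1121 include counts that were 0 and stayed 0, such as combinations of member and region at R3 and R12 in all 77 alternatives each. Most alternatives for combinations refitted 1 region only, so the 1121 say little about the counts above 0. The cause of the 136 moves was not tested. Combinations of member and region called at H1 (main value 1) came to 2 with a pseudocount of 1 and to 0 with a pseudocount of 32, with only probe sets above the median, with a trend and robust fit, with the next highest probe set and by the methods' t-test after adjustment; the next highest probe set gave 2 at H3. The methods' t-test after one-way analysis of variance, unadjusted, gave 3 at H1, 2 at R1, 1 at R6, 1 at R24 and 4 for R1 against H3, and 2 in the mean at R1. In the mean of the regions, the call at R1 came to 0 with centred arrays, with the next highest probe set (Sdhaf3 0.07, reversed), with subunits only, without cortex and without hippocampus. Only probe sets above the median gave 0 at H1, 0 at H3, 1 at R3 and 0 for R1 against H3, with Cox7c not among the probe sets tested, and leaving out striatum gave 0 for R1 against H3. The adjusted t-test gave 0 at H1, H3, R1 and for R1 against H3. The replicate block gave 2 at H3, 1 at R3 and 2 for R1 against H3, and 4 members lower in hippocampus. All arrays with a random replicate block gave 4 at H3, 9 at R1, 2 at R3 and 3 for R1 against H3. Among control regions, members lower in hippocampus (main value 1) came to 0 with a pseudocount of 1, 5 with 32, 7 with quantile normalization and 0 with centring. Members higher in striatum came to 1 with a pseudocount of 32 and 2 with quantile normalization, those higher in thalamus to 1 with a pseudocount of 1 and 1 with centring, and centring gave 3 higher in midbrain and 5 in cerebellum. Using the arrays of all time points, the F-test called 93 members, with cortex at 4 higher and 77 lower, hippocampus at 6 and 51, striatum at 20 and 49, thalamus at 19 and 12, midbrain at 45 and 11, pons and medulla at 79 and 7 and cerebellum at 36 and 39. The hypoxia and reoxygenation arrays alone, an alternative chosen after seeing the data, gave 94, and 4 and 77, 5 and 48, 18 and 47, 15 and 12, 42 and 11, 79 and 7, and 35 and 37 in the same order. For these and the other refitted alternatives, fits with a replicate left out among them, shares of all probe sets were not computed. Their counts therefore have no background of their own and do not set the members apart from other genes. Leaving out 1 replicate, calls in the mean ranged from 0 to 1 at H1, H3, R1 and for R1 against H3, and combinations from 0 to 2 at H1 and 0 to 1 at H3. With 2 control arrays a region, the F-test called 19 to 26, with 1 to 2 higher and 10 to 16 lower in cortex, 0 higher and 0 to 1 lower in hippocampus, 2 to 7 lower in striatum, 1 to 2 higher and 0 to 1 lower in thalamus, 0 to 2 higher in midbrain, 16 to 19 higher in pons and medulla, and 2 to 6 higher and 3 to 4 lower in cerebellum. With 2 of the 3 replicate numbers, only Cox7c at H3 without replicate 3 passed in the mean (adjusted p = 0.0453).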
